A study of Bos grunniens with 18 samples.

Results

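The 67 m6A peaks that the deposited peak lists of yak ovary place in 3′ UTRs are described here. They were chosen by their annotation alone, as every row labelled 3′ UTR in the lists of the 3 stages, YO-A for anestrus, YO-F for estrus and YO-P for pregnancy. They make up 67 of the 309 peaks analysed, 3 of 9 in YO-A, 6 of 18 in YO-F and 58 of 282 in YO-P. They lie in 50 host genes, 3 in YO-A, 5 in YO-F and 46 in YO-P. Ovaries of healthy yaks, said to be of the same age, were taken at slaughter in April (anestrus), August (estrus, also called the follicular phase) and December (pregnancy). The labels name no treatment, strain or genotype. Poly(A) RNA was fragmented and precipitated with an m6A antibody, and the 18 libraries are 3 immunoprecipitated and 3 input libraries per stage. Each stage was sampled in 1 month, so stage and month cannot be told apart.

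N6-methyladenosine, m6A, is a methyl mark on adenosines inside mRNA. It is written by the METTL3-METTL14 complex, removed by FTO and ALKBH5 and read by proteins such as the YTHDF family. In mammalian mRNA the mark is known to gather around the stop codon and in the 3′ UTR, the stretch behind the coding sequence where stability, localisation and translation of a transcript are controlled. A peak is a region where reads of the immunoprecipitated RNA exceed those of the input, and its fold enrichment is the ratio of the former to the latter.

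Each stage has 1 pooled list, so a peak has 1 value per stage, replicates cannot be separated, and no difference between the stages was tested. Only the first part of each list was analysed. All of it lies on chromosome 1, and each list runs along the plus strand first. The YO-A list ends at position 22449705 of the plus strand and the YO-F list at 36965772, whereas the YO-P list covers the plus strand up to 172200451 and the minus strand up to 46144327. Numbers of peaks can therefore be compared only up to the first of these positions for the 3 stages and up to the second for YO-F and YO-P. Read depth of the immunoprecipitated libraries is not in the lists. Of the 36 ovary genes looked up in the expression table (follicle, steroid hormone and oocyte genes), 1 is among the 173 genes analysed, so the identity of the tissue could not be checked from its markers.

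The 3′ UTR held 33.3% of the peaks in YO-A (exact 95% interval 7.49% to 70.1%), 33.3% in YO-F (13.3% to 59.0%) and 20.6% in YO-P (16.0% to 25.8%). These intervals cover counting error only. In YO-P, the exon class held 196 peaks (69.5%) and the 5′ UTR 28 (9.93%). Up to position 22449705, where all lists can be compared, 3 of 9 peaks were in 3′ UTRs in YO-A, 2 of 5 in YO-F and 1 of 6 in YO-P. Up to 36965772, the share was 6 of 18 in YO-F and 4 of 12 in YO-P, 33.3% in both. Within YO-P, the share was 20.2% of 238 peaks on the plus strand and 22.7% of 44 on the minus strand. The lower share in the whole YO-P list thus stands beside a longer stretch of chromosome than the other lists cover. The label also leaves out peaks near the 3′ end of some genes. Of the 196 exon peaks in YO-P, 49 (25.0%) lay in the last exon of a transcript and 17 of these ended at its last base, without being labelled 3′ UTR.

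**Figure D1:**
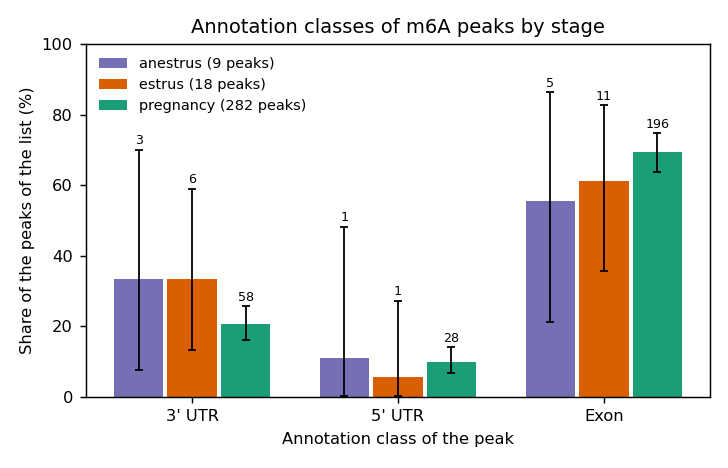
Share of the peaks of each list (y axis, percent) in the 3′ UTR, 5′ UTR and exon classes (x axis) for anestrus, estrus and pregnancy, with the number of peaks above each bar and exact 95% binomial intervals. The 3′ UTR bars stand at 33.3%, 33.3% and 20.6%, and the intervals of the 2 short lists are wide.

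The median fold enrichment of the 3′ UTR peaks was 5.03 in YO-A (3.48 to 6.13), 7.18 in YO-F (2.89 to 108) and 4.32 in YO-P (1.49 to 30.2). Over all other peaks of the same list it was 5.24, 3.92 and 4.48. The YO-F value rests on few peaks and was 3.95 over its single-block members. In YO-P, the quartiles of the members were 2.90 and 7.07 and those of the other peaks 2.90 and 7.56, and 8 of 58 members (13.8%) against 26 of 224 other peaks (11.6%) reached a fold enrichment of 10. By size of enrichment, the members of YO-P thus spanned nearly the same range as the rest of their list, whose largest value was 29.2. The members were longer than the other peaks of their list, which is given without a test. Without introns, the median length was 299 bases in YO-P (quartiles 180 and 420) against 210 bases over the other peaks (120 and 359). In YO-A it was 301 against 225 bases, and in YO-F 404 against 195 bases.

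The evidence behind a 3′ UTR peak was also stronger in the authors' lists. The median log10 p of the members was -41.4 in YO-A, -59.7 in YO-F and -32.2 in YO-P, where the other peaks had -3.94, -3.27 and -9.75. In YO-P, 43 of 58 members (74.1%) had a log10 p of -5 or less, against 58.9% of the other peaks. A false discovery rate of 0.05 or less was listed for 3 of 3 members in YO-A, 6 of 6 in YO-F and 52 of 58 in YO-P (89.7%, against 81.7% of the others). Among the 58 members of YO-P, longer peaks had larger fold enrichment (Spearman's rho = 0.419) and a smaller p (rho = 0.500), while fold enrichment and strength of the p were nearly unrelated (rho = -0.093). Over the 224 other peaks of YO-P, the same coefficients were 0.314, 0.224 and -0.234. All points come from 1 pooled pair of libraries, so these coefficients only describe the list.

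**Figure D2:**
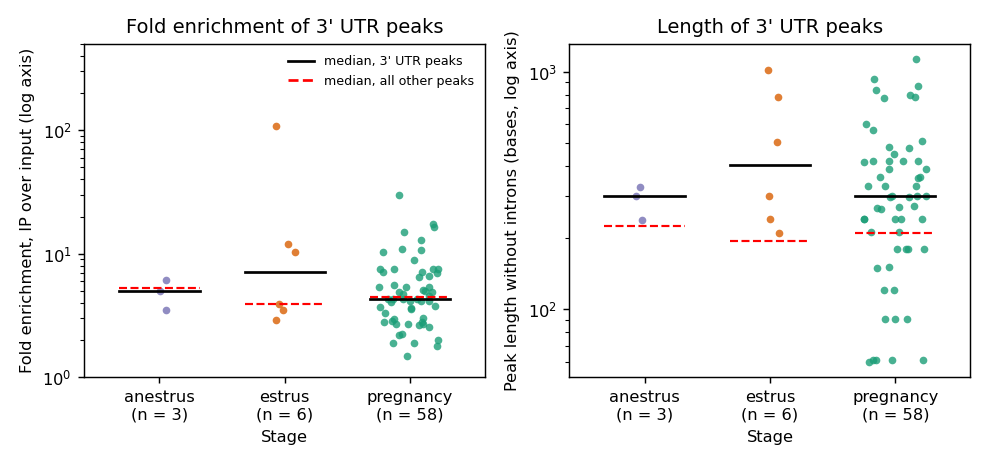
Fold enrichment of immunoprecipitation over input (left, log axis) and peak length without introns in bases (right, log axis) of each 3′ UTR peak by stage. Points are peaks, spread sideways for legibility, black lines their medians and red dashed lines the medians of all other peaks of the list. The fold enrichment medians of both sets lie close together in pregnancy (4.32 and 4.48), and the length medians of the 3′ UTR peaks lie above those of the other peaks in each stage.

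Of the 50 hosts, 4 had a 3′ UTR peak in 2 stages, 46 in 1 stage and 0 in all 3. Most of the 46 lie beyond position 36965772 or on the minus strand, where only the YO-P list reaches. Their count of 1 stage therefore says nothing about the other stages. Only VGLL3, RBM11, CHODL and CXADR lie in the part that all 3 lists cover. The hosts with a peak in YO-A were VGLL3, RBM11 and CHODL. VGLL3, a cofactor of the TEAD transcription factors, had a peak in 2 blocks, of 27 and 301 bases, in YO-A (fold enrichment 6.13, log10 p -41.4). In YO-P its 3′ UTR peak had 299 bases (4.15, log10 p -25.5), and the 2 peaks shared 150 bases, 45.7% of the first and 50.2% of the second. No 3′ UTR peak of VGLL3 was listed in YO-F. Its only peak there had 91 bases, was labelled exon and had a fold enrichment of 13.8 (log10 p -3.27). Outside the 3′ UTR, VGLL3 also had an exon peak (20.8, log10 p -22.1) and a 5′ UTR peak (8.91, log10 p -1.95) in YO-A. In YO-P it had a 5′ UTR peak (17.8, log10 p -25.9).

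RBM11, an RNA-binding protein that regulates splicing, carried nearly the same peak in YO-A (chromosome 1, 14233227 to 14233527, fold enrichment 3.48) and in YO-F (14233257 to 14233557, 3.51). Both were 301 bases long, were offset by 30 bases and shared 271, or 90.0% of each. The YO-P list covers this position and holds no peak there. CHODL, a membrane protein with a C-type lectin domain, had a 238-base peak (18868344 to 18868581, 5.03) in YO-A and none in either other list. CXADR, a cell adhesion molecule of tight junctions, had a weak peak in YO-F alone (fold enrichment 2.89, log10 p -3.91). Its 2 blocks, 209 bases in all, span 26.6 kb, and its first block ends at the last base of the assigned transcript, whereas the second ends 26478 bases behind it. Up to position 22449705, 1 of 3 members of YO-A thus recurred in YO-F (1 of its 2), 1 of 3 recurred in YO-P (its only one), and YO-F and YO-P shared 0 members.

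Beyond this position, where only YO-F and YO-P can be compared, all members of YO-F overlapped a YO-P peak. GABPA, an ETS family transcription factor, had the largest fold enrichment of all 67 members, 108 in YO-F, in 4 blocks of 103, 141, 193 and 341 bases. The overlapping YO-P peak had 389 bases, all inside the YO-F peak, and a fold enrichment of 3.57. It stopped 239 bases earlier and was labelled exon, so it is not a member. The 2 exon peaks of GABPA in YO-F, which do not overlap it, had lower values of 1.92 and 2.37. In EVA1C, a heparin-binding membrane protein, the YO-F peak had 506 bases and a fold enrichment of 10.4. The YO-P peak had 298 bases, which all lay inside it, and 7.17. ENSBGRG00000000131, a gene without a symbol that the deposited pathway column places in Jak-STAT signaling, had 2 members in each stage. Their fold enrichments were 12.0 and 3.95 in YO-F and 8.83 and 2.70 in YO-P, so the first one along the gene was the stronger in both. Up to 36965772, 3 of 6 members of YO-F (50.0%) overlapped a member of YO-P, and 3 of 4 of YO-P (75.0%) a member of YO-F. For each overlapping pair of EVA1C and ENSBGRG00000000131 the YO-F value was the higher one, but with 1 pooled value per stage the size of these differences has no error.

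**Figure D3:**
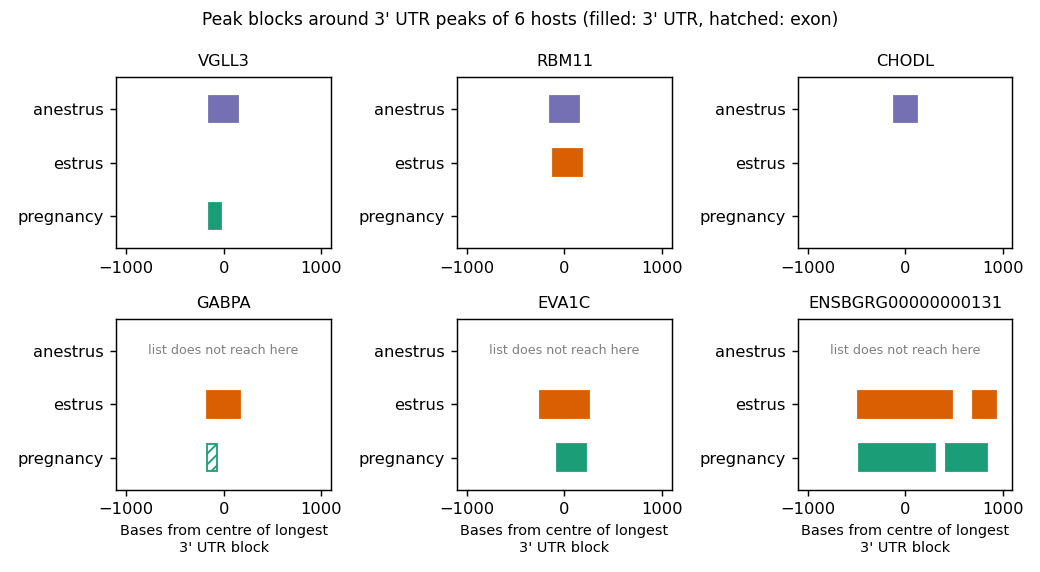
Peak blocks of 6 hosts in anestrus, estrus and pregnancy (rows), drawn as bases (x axis) from the centre of the longest 3′ UTR block of each host. Filled bars are blocks of 3′ UTR peaks and hatched bars blocks of exon peaks. RBM11 has nearly the same block in anestrus and estrus, CHODL a block in anestrus alone, and the pregnancy blocks of GABPA and EVA1C lie inside the estrus blocks.

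The remaining members are those of YO-P, 58 peaks in 46 hosts. The groups used to order them were formed by known function after the hosts had been seen, and so they are not evidence for a theme. Among regulators of transcription and chromatin, with 7 peaks in 5 hosts, the median fold enrichment was 4.15. SHOX2, a homeobox transcription factor, had the largest value of the list, 30.2, in a 329-base peak that ends at the last base of the transcript (chromosome 1, 119125539 to 119125867). A second SHOX2 peak, 58 bases upstream, had 7.56, with a log10 p of only -2.68. ETS2, a transcription factor of the same family as GABPA, had peaks of 61 and 180 bases with 7.08 and 2.68. KAT2B, a histone acetyltransferase, had 2.80 and TBL1XR1, a subunit of the NCoR corepressor complex, 2.21.

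Hosts that act in RNA processing and translation had values of 1.78 to 4.15. LSG1, a GTPase of 60S ribosomal subunit export, had 4.15, CCNL1, a cyclin linked to splicing, 4.14 and DHX36, a helicase that unwinds G-quadruplexes, 3.64. MRPL3, a protein of the mitochondrial ribosome, had 1.78, the lowest of the group. Receptors of the cell surface reached from 2.63 to 7.56. ROBO2, the receptor for SLIT guidance ligands, had 2.63 and RYK, a Wnt receptor, 3.73, both with a log10 p under -100. EPHA6, an ephrin receptor, had 7.56, but its log10 p was -1.61 and its log10 false discovery rate -1.07.

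Among the hosts with extracellular products, ADAMTS1, a protease of the follicle wall with a known role in ovulation, had a 601-base peak (28754681 to 28755281, minus strand) with a fold enrichment of 4.71 and a log10 p of -988. The related aggrecanase ADAMTS5 had a peak of 61 bases with 3.00. APOD, a lipocalin that carries lipids, had a fold enrichment of 2.69 and the most extreme p of all members, a log10 p of -15500. MASP1, a protease of the lectin pathway of complement, had 5.40 at a log10 p of -1.86. The 3 hosts of lipid metabolism lay higher, with a median of 6.84 over 4 peaks. ABCG1, which exports cholesterol, had 15.1 and 7.02, PLD1, which cleaves phosphatidylcholine, 6.66 and AGPAT3, an acyltransferase of phospholipid synthesis, 5.54. The log10 p of both ABCG1 peaks was above -5 (-3.54 and -2.63), unlike the -146 of PLD1 and AGPAT3.

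Hosts that act in nucleotide, cofactor and sugar metabolism had 1.89 to 7.47, from SLC37A1, a sugar-phosphate transporter, to UMPS, which makes uridine monophosphate. Hosts of the cytoskeleton and junctions had 2.98 to 5.06. KNSTRN, a kinetochore protein, had the second longest member of YO-P at 930 bases with 5.06. Among the trafficking hosts, GOLIM4, a Golgi membrane protein, had the longest member, 1128 bases in 8 blocks, with 4.29. KPNA4, an importin that carries proteins into the nucleus, had the shortest member, 60 bases with 2.54, and the smallest fold enrichment, 1.49 in a 151-base peak. DOP1B, a protein of endosome sorting, had 13.0.

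Of the other hosts, SIDT1, a membrane protein of the SID1 family, had 17.3 in 776 bases. C3orf38 had 3 members with 16.5, 10.3 and 10.7, and HSPA13, a member of the Hsp70 family, had 11.0. MX1, an interferon-induced GTPase, had 2.24 at a log10 p of -34.1 and, in a second peak at the end of the transcript, 7.56 at -1.56. At the median stood RCAN1, an inhibitor of calcineurin, and CAPN7, a calpain protease, both with 4.32. The lowest values after KPNA4 and MRPL3 were 1.88 and 2.02 in CRYBG3 and 1.89 in SLC37A1. In the gene ontology column of the list, proteolysis was given for 4 of the 46 hosts (ADAMTS1, ADAMTS5, CAPN7 and MASP1) and for 1 of the 130 hosts that had other peaks alone. DNA-templated regulation of transcription was given for 5 and 6 and nucleus for 11 and 19 (23.9% and 14.6%). Integral component of membrane was given for 5 of the 46 and 13 of the 130, which are nearly equal shares. No term at all was listed for 3 of the 46 and 20 of the 130 (6.52% and 15.4%). The other hosts were thus less often annotated, which by itself makes a term rarer among them. The terms named here were chosen after the counts had been seen, and no test was made.

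Most hosts had 1 member. In YO-P, 37 of 46 hosts had 1, 7 had 2, C3orf38 had 3 and ENSBGRG00000000067 had 4. Neighbouring members of the same host and strand were 58 to 1269 bases apart (median 118 over 11 pairs). Neighbours did not always have like values. SHOX2 had 30.2 and 7.56, whereas the 4 peaks of ENSBGRG00000000067 had 4.10 to 5.40. Of the 46 hosts, 18 had at least 1 peak outside the 3′ UTR as well, and 28 did not. CRYBG3 had 4 other peaks, up to a fold enrichment of 17.3, and DOP1B had 3, up to 21.6. For 2 members the assigned host lies on the other strand. One is a 5-block peak assigned to a U6 snRNA gene, which has no 3′ UTR, and the other is 1 of the CRYBG3 peaks (150 bases, 2.02). The host name of both is uncertain, and the same holds for 12 of the 224 other peaks of YO-P.

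Along the transcript, members lay at the 3′ end and up to several kilobases before it. Of the 56 members of YO-P with a host on their own strand, 27 ended within 300 bases of the end of the transcript, 12 of them at its last base. A further 11 ended over 300 and up to 1000 bases before the end, and 10 over 1000 bases. The other 8 ran past the end of the assigned transcript, by 131 to 64732 bases. Those at the last base included SHOX2, HSPA13, KNSTRN, AMOTL2, an angiomotin family protein of cell junctions, and PLCL2, a catalytically inactive relative of phospholipase C. The largest distance before the end was 6387 bases, in ENSBGRG00000000067. In YO-A the 3 members ended 536, 1018 and 1158 bases before the end. The position of the stop codon is not in the lists, so distance from it could not be given.

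**Figure D4:**
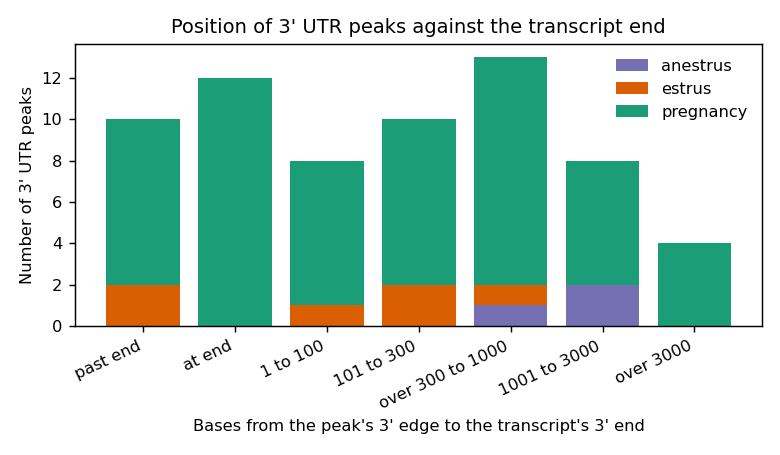
Number of 3′ UTR peaks (y axis) by distance in bases from the 3′ edge of the peak to the 3′ end of the assigned transcript (x axis), stacked by stage, for peaks whose host is on the same strand. In pregnancy 12 peaks end at the last base and 8 run past it.

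In YO-P, 16 of 58 members (27.6%) were split into 2 or more blocks, against 38.4% of the other peaks. Their genomic span reached 65.1 kb in PLD1, while the sum of their blocks had a median of 404 bases. Single-block members had a median of 270 bases. The 42 single-block members had a median fold enrichment of 4.79 and the 16 split ones of 4.15. The 15 members with a log10 p above -5 had a median fold enrichment of 5.40, and the 43 stronger ones of 4.15, so a high fold enrichment was not a sign of strong evidence. Several members had the same fold enrichment. Among the stronger ones, 4.15 was listed for VGLL3 and LSG1 and 4.32 for CAPN7 and RCAN1. Among the weak ones, a fold enrichment of 7.56 was listed for EPHA6, SHOX2 and MX1, and 5.40 for MASP1 and ENSBGRG00000000067, all with a log10 p above -3. The 6 members with a false discovery rate above 0.05 were in EPHA6, MASP1, MX1, PCP4 and ENSBGRG00000000067, the last with 2.

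Expression of the hosts was read from the input libraries, of which 15 of the 50 hosts have values among the 173 genes analysed. Input reads are also the denominator of the fold enrichment, so these values are not independent of the peaks. Input RNA is from a mixed piece of ovary, since a section of each sample was fixed and the rest frozen. In such tissue, fewer cells of a type and less RNA per cell cannot be told apart. FPKM corrects for transcript length and sequencing depth, so levels can be compared between genes. Averaged over 8 libraries, the hosts had a median of 7.47 FPKM (1.64 in ADAMTS5 to 137 in ADAMTS1), against 6.18 for the 130 genes with a mean of at least 0.1 FPKM. Stages were compared with limma on log2(FPKM + 0.1) without YO-F2 (estrus replicate 2), which the study had left out. A call needed a log2 fold change of 1 or more in size together with an unadjusted p below 0.05. In YO-FvsA 0 of the 15 hosts were called, where 1.54% of all genes tested were, and in YO-FvsP and YO-PvsA 0 were called, where 2.31% of all genes were. At an unadjusted p under 0.05 alone, 1 host passed in YO-FvsA (9.23% of all genes), 0 in YO-FvsP (9.23%) and 0 in YO-PvsA (3.08%). With 2 or 3 libraries per stage, an exact two-sided permutation test cannot go below p = 0.1.

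For the hosts whose peaks differed between the lists, FPKM values are set beside the peaks. VGLL3, with 3′ UTR peaks in YO-A and YO-P, had 6.41, 2.24 and 2.81 in YO-A, 2.18 and 2.81 in YO-F and 5.80, 3.55 and 5.17 in YO-P. Both YO-F libraries lay below the 3 YO-P libraries. Against YO-A, the lower YO-F library lay below all 3 libraries and the other between them. VGLL3 had a log2 fold change of -0.91 in YO-FvsP (standard error 0.44, adjusted p = 0.535 from limma) and -0.46 in YO-FvsA (standard error 0.44, adjusted p = 0.743). VGLL3 was called in YO-FvsP with the replicate block (-1.16) and with all 9 libraries (-2.06). In YO-FvsA the value was -0.02 without anestrus replicate 1. YO-F2 had 0.135, far below all others. Whether this library entered the estrus peak list is not given, and its part in the missing estrus peak was not tested.

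RBM11, with peaks in YO-A and YO-F, had 3.85, 1.88 and 4.20 in YO-A, 5.41 and 3.77 in YO-F and 4.35, 3.67 and 3.28 in YO-P. The stages overlapped, with a log2 fold change of 0.27 in YO-FvsP (standard error 0.37) and 0.25 in YO-PvsA (standard error 0.33). CHODL, with its peak in YO-A alone, had 11.6, 4.15 and 18.7 in YO-A, 3.98 and 8.13 in YO-F and 3.83, 4.35 and 4.98 in YO-P. Its YO-A mean of 11.5 ± 7.28 (SD, n = 3) was the highest, but anestrus replicate 2 lay among the YO-P libraries. CHODL fell by 1.13 on the log2 scale in YO-PvsA (standard error 0.50, unadjusted p = 0.0501, adjusted p = 0.874 from limma) and did not pass, and its log2 fold change in YO-FvsA was -0.75 (standard error 0.56, adjusted p = 0.743). CHODL passed in YO-PvsA without anestrus replicate 2 (log2 fold change -1.73), without either estrus library (-1.13), with the replicate block (-1.13) and with a pseudocount of 1 (-1.02), and in YO-FvsA without anestrus replicate 2 (-1.36). Other libraries moved it the other way. Without anestrus replicate 3 the value was -0.66 in YO-PvsA and -0.28 in YO-FvsA, and without estrus replicate 1 it was -0.25 in YO-FvsA.

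CXADR had 3.57, 2.26 and 2.50 in YO-A, 2.74 and 3.37 in YO-F and 2.61, 1.72 and 2.86 in YO-P. With a log2 fold change of 0.15 in YO-FvsA (standard error 0.34) and 0.36 in YO-FvsP (standard error 0.34), its stages overlapped. GABPA, at a fold enrichment of 108 in YO-F and 3.57 in YO-P, had 9.96 and 8.96 FPKM in YO-F and 10.9, 10.8 and 11.8 in YO-P. Both YO-F libraries were lower, with a log2 fold change of -0.24 (standard error 0.19, limma adjusted p = 0.739, exact permutation p = 0.1). Libraries of YO-F and YO-P did not overlap in 4 of 15 hosts (26.7%), where 26.9% of all genes did not. These were VGLL3 and GABPA, lower in YO-F, and ADAMTS5 and C3orf38, higher. In YO-FvsA 1 of 15 hosts (6.67%), PLCL2, did not overlap, against 19.2% of all genes, and in YO-PvsA 0, against 9.23%.

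ADAMTS1, whose YO-P peak is among the strongest by p, was the host with an unadjusted p under 0.05. It had 79.4, 137 and 106.5 FPKM in YO-A, 259 and 132 in YO-F and 94.9, 114 and 170 in YO-P. The stages overlapped, since estrus replicate 3 lay below 1 YO-A library. The log2 fold change in YO-FvsA was 0.82 (standard error 0.34, unadjusted p = 0.0409, adjusted p = 0.521 from limma), and it turned to -0.51 with YO-F2, which had 11.6. Leaving out estrus replicate 1 lowered it to 0.33, whereas leaving out the other YO-F library raised it to 1.30, so it depends on which of them is kept.

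**Figure D5:**
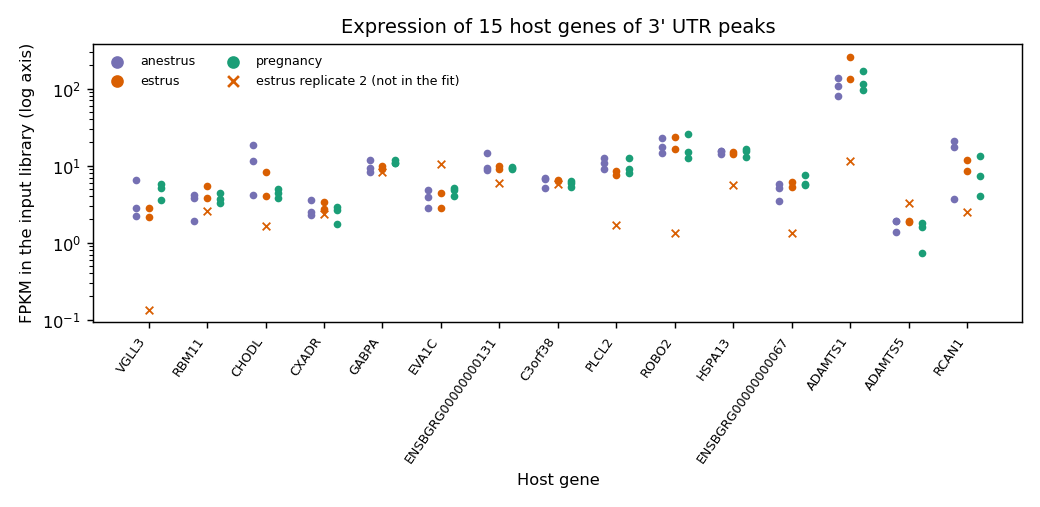
FPKM in each input library (y axis, log axis) of the 15 hosts with values (x axis), coloured by stage. Crosses are estrus replicate 2, which was not in the fit and lies below all other libraries in 9 hosts, while the other points of a host mostly overlap between stages.

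The YO-A and YO-F lists do not reach the hosts of the YO-P list beyond position 36965772. They also hold no part of the minus strand, where the YO-P peaks of ROBO2, HSPA13, ENSBGRG00000000067, ADAMTS1, ADAMTS5 and RCAN1 lie. Peaks of all these hosts in other stages are not known here. Among the genes that write, remove or read the mark, 0 of 21 looked up had a peak of any class in the parts analysed. These parts lie on chromosome 1 alone, and 0 of the 21 were among the genes analysed for expression. Whether any of them lies in these parts was not checked, so the count does not show that they lack the mark. Of the 36 ovary genes, ADAMTS1 had a 3′ UTR peak. FOXL2, a transcription factor that maintains granulosa cell identity, had a peak labelled exon in YO-P.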

How the data were processed

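The authors aligned reads with HISAT2 (2.0.4 in the submitters' processing notes) to the Bos grunniens genome, called peaks of immunoprecipitated against input RNA with a caller not given in the sources used here, 1 list per stage, and annotated them with ChIPseeker 1.18.0. As deposited, the lists hold fold enrichment, a ratio. Their p-value and FDR are given as a log10 score by the authors. FPKM per gene was deposited by the authors from StringTie. The study's methods name a genome version of the species but no assembly, and coordinates are those of the lists. The 3 tables of the authors' own comparisons hold log2 fold changes and p-values of methylation between stages and were not used. Incomplete last lines (3 in the peak lists, 1 in the expression table) were left out.

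Peak length is the sum of the blocks, the strand was read from the order of each list, and overlap required at least 1 shared base of the blocks on the same strand. Gene symbols are those of the files, and 45 of 48 were found in the RefSeq table. Expression was tested with limma 3.58.1 in R 4.3.3 on log2(FPKM + 0.1) for genes with a mean of at least 0.1, all stages in 1 fit of 8 libraries, empirical Bayes moderation with trend and Benjamini-Hochberg adjustment over all genes tested. The fit was tested on simulated data with changes larger than any seen in the hosts. This does not show whether it would call changes of the hosts' size. The labels do not tie each library to an animal, so p-values measure the spread between these samples. Alternatives were stricter peak limits, other counts and overlaps, a pseudocount of 1 or 0.01, a minimum of 1 or none, all 9 libraries, median-ratio scaling, the replicate block and each library left out. Intervals are Clopper-Pearson intervals. Python 3.11.15 was used for counts and figures.

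The members were taken by their 3′ UTR label alone. Earlier results of these data were known when they, the gene lists and the alternatives were chosen. The rule for named genes took all YO-A and YO-F hosts, in YO-P those with the 8 largest and 5 smallest fold enrichments, the 3 longest and 3 shortest peaks, 2 or more members or the median value, hosts with expression values, and hosts on the lists of m6A and ovary genes. Other YO-P hosts were named after their values were seen. No sequence is shown, since no file used here holds the bases of the peaks.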

Additional observations from a re-analysis of the deposited data

Results flagged for a closer look

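EVA1C had an FPKM of 10.6 in estrus replicate 2 (YO-F2), a library the stage comparisons do not use, where the other 8 libraries had 2.83 to 5.11. It was the only 1 of the 15 hosts that lay more than 1 log2 unit above all other libraries there, and 7 hosts lay more than 1 log2 unit below them, VGLL3 by the most (0.135 against 2.18 to 6.41).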

How the results depend on the processing

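With an FDR of at most 0.05, with hosts counted or with another rule of overlap, the numbers, shares, medians and shared peaks run under each stayed within 1.5 times of the values reported. With a log10 p of at most -5, the share of 3′ UTR peaks rose to 60.0% in YO-A, 55.6% in YO-F and 24.6% in YO-P, each inside the interval given for it. The median fold enrichment in YO-F was 3.95 over single-block peaks and 10.4 with 1 peak per host. In the part all lists cover, the number fell to 2 in YO-F and 1 in YO-P. The median length in YO-F became 3531 bases as genomic span, since introns are then counted. The number of called hosts was 0 in each comparison and rose to 1 in YO-FvsP with all 9 libraries (VGLL3, log2 fold change -2.06) and in YO-PvsA with a pseudocount of 1. The replicate block gave 1 host in YO-FvsP (VGLL3, -1.16), 1 in YO-PvsA and 0 in YO-FvsA. Same-numbered libraries correlated at -0.17 to 0.389 in their deviations from the stage means. Differently numbered libraries were not set beside them, so whether same-numbered libraries share more than a number was not tested. With 1 library left out, the number was 0 to 2 in YO-FvsA, 0 to 1 in YO-FvsP and 0 to 1 in YO-PvsA. ADAMTS1 was called in YO-FvsA without anestrus replicate 2 (1.01) and, with estrus replicate 1 assumed to vary like the other libraries, without estrus replicate 3 (1.30; 0.33 and not called without estrus replicate 1), where it was also called in YO-FvsP (1.08). RCAN1 was called in YO-PvsA without anestrus replicate 1 (-1.37). RBM11 turned to -0.0021 in YO-FvsP with all 9 libraries and to -0.10 in YO-PvsA without anestrus replicate 2 (up to 0.46 without anestrus replicate 3), CXADR to -0.02 in YO-FvsA with the replicate block, and ADAMTS1 to -0.51 in YO-FvsA with all 9 libraries. The causes were not tested. Without read counts, the depth behind a peak or an FPKM value is unknown.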
